A study of Mus musculus with 20 samples.

Results

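The genes described here encode the nuclear parts of the mitochondrial respiratory chain and the ATP synthase, measured in the livers of progeroid Ercc1Δ/- and wild type mice on restricted or control diet. They were chosen by symbol: Nduf genes of the a, b, c, s and v series for complex I, Sdha to Sdhd for complex II, Uqc genes and Cyc1 for complex III, Cox4 to Cox8 genes for complex IV, and Atp5 genes for complex V. This gave 90 genes of 17097 on the array, with 42 in complex I, 4 in complex II, 10 in complex III, 17 in complex IV and 17 in complex V. Among the 90 are 9 assembly factors and 1 entry named as a pseudogene, Ndufs5-ps in complex I. No measured level entered the choice, and a gene with several probe sets was read from the brightest, by its mean signal on the 20 arrays.

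Liver RNA from 20 mice, all aged 11 weeks, was hybridised to Affymetrix arrays, 1 array per animal. The 4 groups of 5 animals were Ercc1Δ/- mice on restricted diet, Ercc1Δ/- mice on control diet, wild type littermates on restricted diet and wild type littermates on control diet, all of an F1 C57BL6J/FVB hybrid background and all on AIN93G pellets. Ercc1Δ/- mice combine a truncated and a null allele of a DNA repair endonuclease subunit in every cell, are called progeroid because they age early, and are a whole-body model in which the liver is 1 of many affected organs. Restriction started at 7 weeks of age with 10% less food and reached 30% at 9 weeks, and food was supplied at the onset of the dark period. For wild type mice the labels give 3.0 g of food per day on control diet and 2.1 g on restricted diet. The comparisons ask how restriction and the repair defect change the liver. In whole liver RNA, fewer cells of a type and less RNA per cell cannot be told apart.

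Complexes I to IV pass electrons taken from NADH and succinate to oxygen and, except for complex II, pump protons out of the mitochondrial matrix; complex V, the ATP synthase, lets the protons return and makes ATP. Most subunits are encoded in the nucleus and imported, a small core is encoded by mitochondrial DNA, and dedicated assembly factors put the parts together. Hepatocytes are rich in mitochondria and use this chain to oxidise fat, above all when food is short. The core subunits that mitochondrial DNA encodes were not analysed here, nor were several nuclear subunits such as Uqcrh and Cox7b.

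The liver identity was clear in every group. Alb, the gene of serum albumin, had mean log2 signals of 14.39 and 14.29 in progeroid restricted and progeroid control livers, and of 14.34 and 14.27 in wild type restricted and wild type control livers. Ercc1 itself had a log2 signal of 4.80 ± 0.24 in progeroid restricted, 5.30 ± 0.15 in progeroid control, 6.15 ± 0.12 in wild type restricted and 6.54 ± 0.07 in wild type control livers (SD, n = 5 each), and it was lower in progeroid livers on both diets. That difference was read from 1 probe set: the Ercc1 probe set without a suffix for possible cross-hybridisation gave a log2 difference of 0.02 on each diet, and whether either lies in the deleted part of the gene was not checked. Pairs of arrays correlated between 0.979 and 0.997, and no array was left out.

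Most of the members were bright on the array. Of the 90 members, 73 had a mean log2 signal of at least 10, a level that 1474 of the 17097 genes reached. Complex V was the most even, with means between 11.37 for Atp5mpl, a small proteolipid of the ATP synthase, and 13.29 for Atp5g3, a gene of the c subunit whose ring turns in the membrane. Complex IV was the most uneven, with means between 2.74 for Cox7b2, an isoform known from testis, and 13.33 for Cox6a1, the general isoform of its subunit. The complex II members lay between 9.73 for Sdhd and 12.45 for Sdhb, those of complex III between 7.11 for Uqcc1 and 12.54 for Uqcrq, and those of complex I between 4.16 for Ndufa4l2 and 12.78 for Ndufb11. Signals of different probe sets depend on their probes, so these levels give no ratio between subunits.

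Of the 90 members, 8 had means under 6, and 7 of these are complex IV isoforms. They were Cox7a1 at 5.78, Cox8c at 5.66, Cox6a2 at 4.68, Cox8b at 4.44, Cox6b2 at 4.02, Cox4i2 at 3.62 and Cox7b2 at 2.74, isoforms known for heart, skeletal muscle, lung or testis. The eighth, Ndufa4l2 at 4.16, is the isoform of Ndufa4 that hypoxia is known to induce; the protein of Ndufa4 is now counted with complex IV, but the symbol rule places both in complex I. The general isoforms Cox4i1, Cox6a1, Cox6b1, Cox7a2 and Cox8a had group means between 11.28 and 13.35. None of these 5 passed the test in any comparison; Cox4i1, for example, averaged 12.52 ± 0.09 in progeroid restricted, 12.35 ± 0.20 in progeroid control, 12.64 ± 0.08 in wild type restricted and 12.56 ± 0.12 in wild type control livers (SD, n = 5 each). The other dim isoforms apart from Cox7a1 and Cox8c also passed no test.

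Members varied little between animals. The median SD over all 20 arrays was 0.12 for the members (log2), against 0.17 for all genes and 0.163 for all genes with a mean of at least 10. Below, rose and fell are used of genes with a limma adjusted p under 0.05, p-values being adjusted over all 17097 genes, and all fold changes below are differences of log2 signal with their moderated standard error (SE).

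Diet restriction in progeroid livers raised 6 members and lowered 2. The 6 that rose were Sdhd of complex II, Uqcrc1 and Uqcrfs1 of complex III, Cox7a1 of complex IV, and Atp5g1 and Atp5g3 of complex V. The 2 that fell, Ndufaf1 and Uqcc2, are assembly factors of complexes I and III. The 8 called members are 8.89% of the 90, while 12.0% of all genes were called in this comparison, 6.94% higher and 5.07% lower. Among genes with a mean of at least 10, 21.0% were called, against 4 of the 73 members at that level (5.48%), all 4 higher, where 11.9% of the bright genes were higher and 9.16% lower. The restricted and control animals did not overlap for 4 members, Cyc1, Atp5b, Atp5g1 and Atp5g3, all higher, where 5.19% of all genes were higher and 3.78% lower without overlap. Most changes were small and positive: 70 of the 90 members had a log2 change above 0, with a median of 0.061 against -0.014 for all genes.

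Diet restriction in wild type livers raised 23 members and lowered 4. Of the 23 that rose, 14 belong to complex I, 2 to complex II, 4 to complex III, 1 to complex IV and 2 to complex V. The 4 that fell were Ndufaf1, Uqcc1, Ndufa3 and Cox8c. The 27 called members are 30% of the 90, while 22.5% of all genes were called, 9.92% higher and 12.6% lower. Bright genes were called more often than the average gene: 39.6% of those with a mean of at least 10 passed, 20.8% higher and 18.8% lower, against 21 of the 73 members at that level (28.8%), 20 of them higher and 1 lower. Again 70 of the 90 members had a change above 0, and the median was 0.093 against -0.030 for all genes. The diets did not overlap for 23 members that were higher and 4 that were lower, where this held for 6.90% and 8.77% of all genes. Of 8 Kupffer cell and macrophage markers, 0 were called higher and 2 lower in this comparison, 7 were below 0 with a median of -0.464, and their part in the members' changes was not tested.

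**Figure D1:**
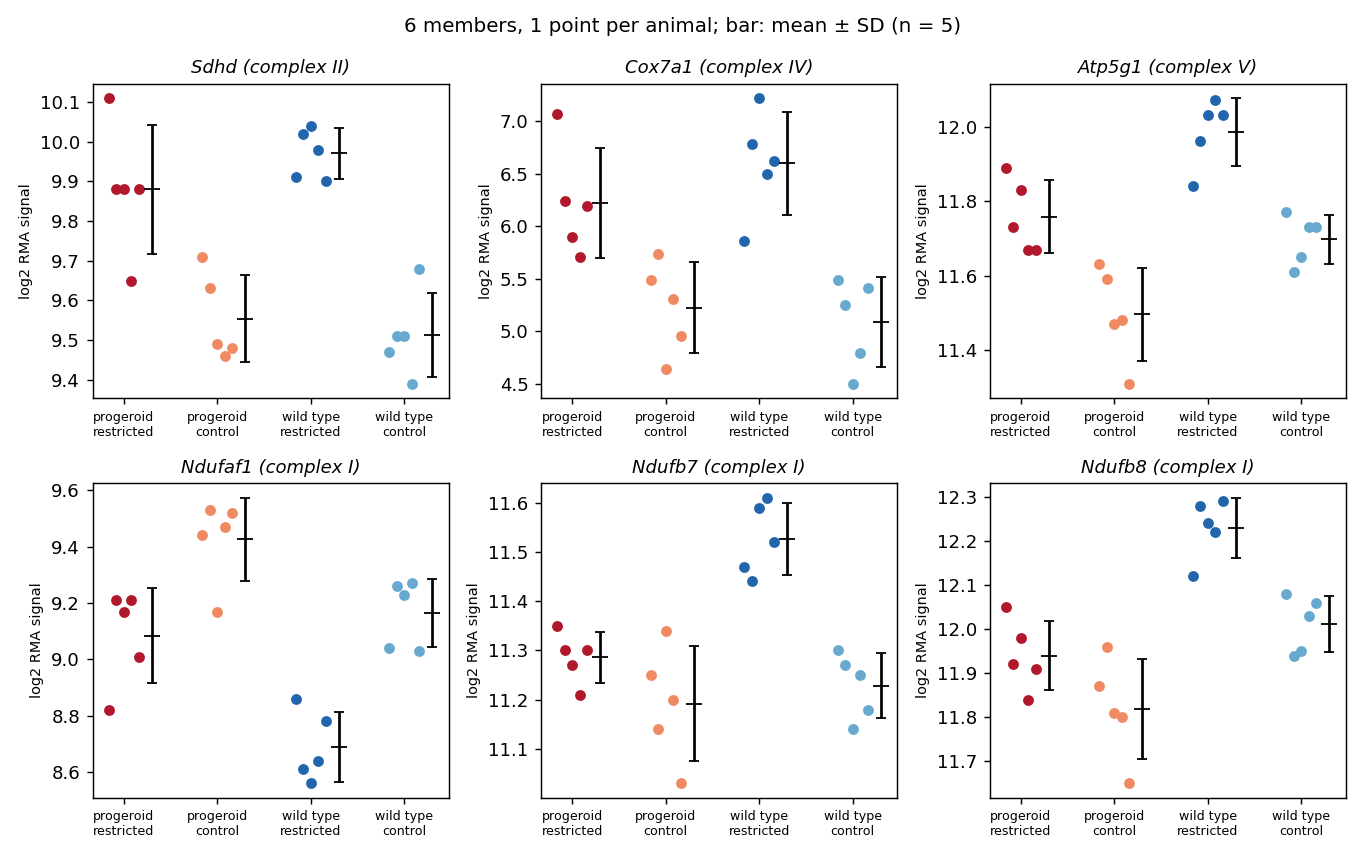
Log2 signal of 6 members in each of 20 animals. Each panel has its own vertical axis that does not start at 0, points are single animals, and the bars give mean ± SD (n = 5 per group). Sdhd, Cox7a1 and Atp5g1 are higher, and Ndufaf1 is lower, on restricted than on control diet in both genotypes, while Ndufb7 and Ndufb8 are highest in the wild type restricted animals.

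Complex II held the smallest adjusted p of the members in both diet comparisons. Sdhd encodes a membrane anchor of succinate dehydrogenase, the enzyme shared by the tricarboxylic acid cycle and the chain. Its log2 signal was 10.11, 9.88, 9.88, 9.65 and 9.88 in progeroid restricted livers, against 9.71, 9.63, 9.49, 9.46 and 9.48 in progeroid control livers. It was 9.91, 10.02, 10.04, 9.98 and 9.90 in wild type restricted livers, against 9.47, 9.51, 9.51, 9.39 and 9.68 in wild type control livers. In the progeroid groups only animal 368 at 9.65 reached into the control range, and in the wild type groups all 5 restricted animals lay above all 5 controls. The rise was 0.32 ± 0.08 in progeroid livers (SE; adjusted p = 0.008487) and 0.46 ± 0.08 in wild type livers (adjusted p = 0.0001999). Both calls held without any 1 animal and under every alternative tried.

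The other complex II subunits moved less. Sdhc, the second membrane anchor, rose by 0.19 ± 0.07 in wild type restricted livers (SE; adjusted p = 0.04449), a call lost without any 1 of 12 animals (adjusted p up to 0.1325), and differed by 0.14 in progeroid livers (adjusted p = 0.1835). Sdhb, the iron-sulfur subunit, differed by 0.11 between diets in progeroid livers and by 0.15 in wild type livers, with adjusted p of 0.2231 and 0.06398. Sdha, the flavoprotein that oxidises succinate, differed by 0.02 in progeroid livers and by -0.11 in wild type livers, with adjusted p of 0.8556 and 0.2035. Of the 3 other Sdha probe sets, 1 with a mean signal of 5.53 was called higher in wild type restricted livers, by 0.96 ± 0.17 (SE; adjusted p = 0.0004635, limma over all probe sets), and the others gave 0.00 and -0.02 there.

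Cox7a1 showed the largest fold of the 90 members. It encodes the isoform of a complex IV subunit known from heart and skeletal muscle, while Cox7a2 is the isoform known from liver. Cox7a1 signal was 7.07, 6.24, 5.90, 5.71 and 6.19 in progeroid restricted livers, against 5.49, 5.73, 4.64, 5.31 and 4.95 in progeroid control livers. It was 5.86, 6.78, 7.22, 6.50 and 6.62 in wild type restricted livers, against 5.49, 5.25, 4.50, 4.79 and 5.41 in wild type control livers. Progeroid restricted animal 368 at 5.71 and progeroid control animal 323 at 5.73 overlapped, and the wild type groups did not overlap. The rise was 1.0 ± 0.27, or 2.0-fold, in progeroid livers (SE; adjusted p = 0.01808) and 1.51 ± 0.27, or 2.85-fold, in wild type livers (adjusted p = 0.0003496).

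The progeroid call of Cox7a1 was lost without control animal 325 or restricted animal 362 (adjusted p up to 0.05516). Cox7a2 averaged 13.01 ± 0.07 in progeroid restricted and 13.01 ± 0.08 in progeroid control livers, and 13.00 ± 0.09 in wild type restricted and 12.99 ± 0.05 in wild type control livers (SD, n = 5 each). Markers of adipocytes and skeletal muscle, tissues that could carry Cox7a1, were near the bottom of the scale: the mean signal of 7 such genes ranged over 3.43 to 3.47 in progeroid restricted and 3.46 to 3.57 in progeroid control livers, and over 3.46 to 3.56 in wild type restricted and 3.52 to 3.72 in wild type control livers. None of the 7 passed the limma test in either diet comparison, with 0 and 1 of them at an unadjusted p under 0.05 in progeroid and wild type livers. Signals this dim limit what the markers can show. Whether such tissues had a part in the Cox7a1 changes was not tested.

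Of the 5 complexes, complex IV had the smallest median change with diet in both genotypes. Over all 17 members, 7 of them with means under 6, this median was 0.046 in progeroid and 0.007 in wild type livers. Complex I had 1 such dim member and complexes II, III and V had none. No ranking was made of bright members alone. Beside Cox7a1 only Cox8c, an isoform known from testis, passed a test, and it fell. Its dim signal was 5.65, 5.35, 5.70, 5.52 and 5.36 in wild type restricted livers against 5.72, 5.91, 5.85, 5.85 and 5.96 in wild type control livers. These groups did not overlap, and the change was -0.34 ± 0.10 (SE; adjusted p = 0.0151). In their brightest probe sets Cox5a and Cox5b, nuclear subunits around the catalytic core, differed between diets by 0.11 and 0.00 in progeroid livers and by 0.01 and -0.04 in wild type livers, none with an adjusted p under 0.15.

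**Figure D2:**
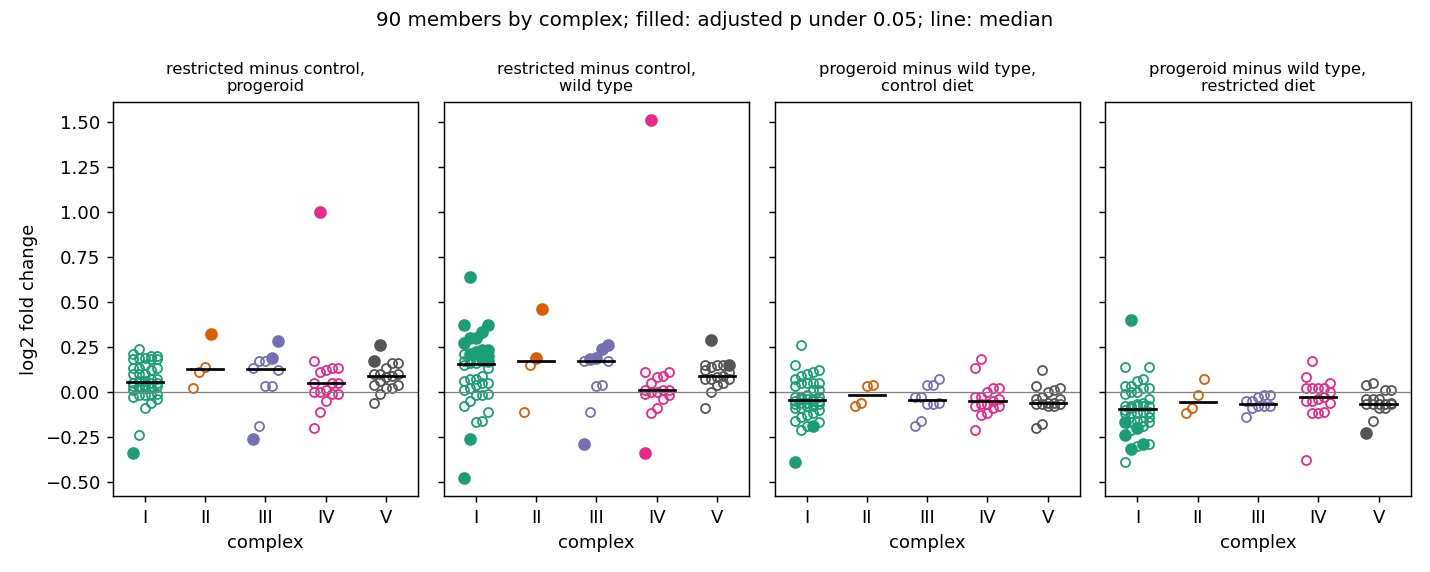
Log2 fold changes of the 90 members in 4 comparisons, grouped by complex I to V. Each circle is a gene, filled where the limma adjusted p is under 0.05, and the horizontal line is the median of the complex. In the wild type diet comparison the medians are 0.152, 0.170, 0.169, 0.007 and 0.094 for complexes I to V, and in both genotype comparisons every median lies below 0.

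In complex V, 2 of 17 members (11.8%) rose in each diet comparison and none fell. All 17 had a mean of at least 10. Of all genes at that level, 11.9% rose in progeroid and 20.8% in wild type livers. The c subunit has 3 genes, Atp5g1, Atp5g2 and Atp5g3, which encode the same mature protein behind different import sequences. Atp5g1 signal was 11.89, 11.73, 11.83, 11.67 and 11.67 in progeroid restricted livers, against 11.63, 11.59, 11.47, 11.48 and 11.31 in progeroid control livers. It was 11.84, 11.96, 12.03, 12.07 and 12.03 in wild type restricted livers, against 11.77, 11.61, 11.65, 11.73 and 11.73 in wild type control livers. The diets did not overlap in either genotype, and the rises were 0.26 ± 0.07 in progeroid livers (SE; adjusted p = 0.01508) and 0.29 ± 0.07 in wild type livers (adjusted p = 0.003983). Both calls rest on 1 probe set with a suffix for possible cross-hybridisation; the second Atp5g1 probe set, with a mean of 2.92, was not called. The progeroid call was also lost with the all-gene median of each array subtracted and with the progeroid arrays fitted alone (adjusted p up to 0.3533 over the alternatives).

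Atp5g3 rose by 0.17 ± 0.05 in progeroid restricted livers (SE; adjusted p = 0.02831), where the diets did not overlap, but the call was lost without any 1 of 5 animals, among them progeroid restricted 362, 366 and 369 and progeroid control 325 and 327. In wild type livers Atp5g3 differed by 0.04 (adjusted p = 0.6062). Atp5g2 differed by 0.16 in progeroid and 0.15 in wild type livers, with adjusted p of 0.09482 and 0.06944. Atp5h, a subunit of the stalk that holds the catalytic head still, rose by 0.15 ± 0.05 in wild type restricted livers (SE; adjusted p = 0.01936), a call lost without wild type control animal 403 (adjusted p = 0.0501). The catalytic head genes Atp5a1, Atp5b and Atp5c1 passed no test in their brightest probe sets: Atp5b, the catalytic subunit itself, differed by 0.16 ± 0.06 in progeroid and 0.15 ± 0.06 in wild type livers (SE), with adjusted p of 0.07605 and 0.07385. The second Atp5c1 probe set, with a mean signal of 6.19, was called higher by 1.13 ± 0.19 in wild type restricted livers (SE; adjusted p = 0.0002291, limma over all probe sets), and lower in progeroid than in wild type livers on restricted diet, with a change of -0.74 ± 0.19 (adjusted p = 0.01131).

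In complex III, 2 of 10 members rose (20%) and 1 fell (10%) in progeroid livers. In wild type livers 4 rose (40%) and 1 fell (10%). Of the 10 members, 8 have a mean of at least 10. Those that fell, Uqcc2 at 9.93 and Uqcc1 at 7.11, are dimmer than the bright genes given next. Of all genes with a mean of at least 10, 11.9% rose and 9.16% fell in progeroid livers. The shares in wild type livers were 20.8% and 18.8%. Cyc1, the cytochrome c1 subunit that hands electrons to cytochrome c, had signals of 11.91, 11.90, 12.16, 11.97 and 11.98 in wild type restricted livers against 11.77, 11.78, 11.71, 11.64 and 11.82 in wild type control livers. It rose there by 0.24 ± 0.06 (SE; adjusted p = 0.004713), with no overlap, and the call held under every alternative. In progeroid livers Cyc1 had 11.94, 11.85, 11.82, 11.76 and 11.84 on restricted diet against 11.70, 11.65, 11.75, 11.65 and 11.59 on control diet. These groups did not overlap either, but the difference of 0.17 ± 0.06 had an adjusted p of 0.05873.

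Uqcrfs1, the Rieske iron-sulfur protein, rose in both genotypes. Its signals were 11.59, 11.56, 11.48, 11.31 and 11.41 in progeroid restricted livers, against 11.39, 11.29, 11.19, 11.30 and 11.25 in progeroid control livers. They were 11.37, 11.54, 11.60, 11.50 and 11.47 in wild type restricted livers, against 11.36, 11.26, 11.29, 11.32 and 11.32 in wild type control livers. Restricted animals exceeded most controls, with an overlap in the progeroid and none in the wild type groups. The rise was 0.19 ± 0.06 in each genotype, with adjusted p of 0.04993 in progeroid and 0.03137 in wild type livers (SE). Both calls sat at the threshold: leaving out any 1 of 16 animals ended the progeroid call (adjusted p up to 0.1294), and any 1 of 7 ended the wild type call (up to 0.08694).

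Uqcrc1, a core protein of complex III, rose by 0.28 ± 0.09 in progeroid restricted livers (SE; adjusted p = 0.0456) and differed by 0.17 in wild type livers (adjusted p = 0.1866); the progeroid call was lost without any 1 of 13 animals. Uqcrc2, the second core protein, and Uqcr10, a small subunit, rose in wild type restricted livers by 0.18 and 0.26, with adjusted p of 0.03515 and 0.02673. Leaving out any 1 of 6 animals ended the Uqcrc2 call and any 1 of 5 the Uqcr10 call, and the Uqcr10 probe set without a suffix gave -0.06. The assembly factors of the cytochrome b subunit went the other way. Uqcc2 fell by 0.26 on the log2 scale in progeroid restricted livers (adjusted p = 0.02951), a call lost without any 1 of 5 animals, and Uqcc1 fell by 0.29 in wild type restricted livers (adjusted p = 0.01306), a call lost where suffixed probe sets were left out.

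In complex I, restriction raised 0 of 42 members and lowered 1 (2.38%) in progeroid livers, and raised 14 (33.3%) and lowered 2 (4.76%) in wild type livers. Of the 42, 35 have a mean of at least 10. Among the called members, Ndufaf1 at 9.09 and Ndufaf4 at 9.88 are dimmer than the bright genes given next. Of all genes with a mean of at least 10, 11.9% rose and 9.16% fell in progeroid livers. The shares in wild type livers were 20.8% and 18.8%. The complex has an arm in the matrix, which oxidises NADH, and an arm in the membrane, which pumps protons. In wild type livers the rises took in both arms: Ndufs1 (0.30, adjusted p = 0.008839), Ndufv1 (0.27, 0.01354) and Ndufv2 (0.23, 0.01788) belong to the NADH-oxidising module. Ndufb7 (0.30, adjusted p = 0.001021), Ndufb8 (0.22, 0.01422), Ndufb9 (0.18, 0.01791), Ndufc1 (0.23, 0.01519) and Ndufc2 (0.33, 0.007944) belong to the membrane arm. The other subunits that rose were Ndufa5, Ndufa6, Ndufa8, Ndufa11 and Ndufa12, with log2 changes of 0.17 to 0.37. In progeroid livers no complex I subunit passed the limma test in its brightest probe set. An unadjusted limma p under 0.05 was seen for 10 of the 42 complex I members, a count given without a share of all genes.

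Ndufb7, an accessory subunit at the far end of the membrane arm, had the smallest adjusted p of these. Its signals were 11.47, 11.44, 11.59, 11.61 and 11.52 in wild type restricted livers against 11.30, 11.27, 11.14, 11.25 and 11.18 in wild type control livers. In progeroid livers they were 11.35, 11.30, 11.27, 11.21 and 11.30 on restricted diet against 11.25, 11.14, 11.34, 11.20 and 11.03 on control diet. The wild type groups did not overlap and the progeroid groups did. Ndufs1, the largest iron-sulfur subunit, had 10.73, 10.86, 11.03, 10.96 and 10.78 in wild type restricted livers against 10.42, 10.68, 10.63, 10.44 and 10.67 in wild type control livers, also without overlap. In progeroid livers Ndufs1 differed between diets by 0.02 (adjusted p = 0.915).

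Several of the complex I calls in wild type livers were less firm. The call of Ndufv2 was lost without restricted animal 423 (adjusted p = 0.05047), that of Ndufa11 without control animal 404 or restricted animals 423 or 424, and those of Ndufa6, Ndufa8 and Ndufa12 without any 1 of 7, 10 and 9 animals. The calls of Ndufv1, Ndufb8 and Ndufc1 were lost where suffixed probe sets were left out. Over all complexes, 17 of the 27 wild type calls held without any 1 animal and 12 held under every alternative too, while in progeroid livers 3 and 2 of the 8 calls did so. Ndufa3, an accessory subunit, fell by 0.26 on the log2 scale in wild type restricted livers (adjusted p = 0.00529), with signals of 11.62, 11.50, 11.57, 11.54 and 11.59 against 11.92, 11.82, 11.76, 11.83 and 11.77 in wild type controls.

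The assembly factor Ndufaf1, which works on the membrane arm of complex I, fell in both genotypes. Its signals were 8.82, 9.21, 9.17, 9.21 and 9.01 in progeroid restricted livers, against 9.44, 9.53, 9.17, 9.47 and 9.52 in progeroid control livers. They were 8.86, 8.61, 8.56, 8.64 and 8.78 in wild type restricted livers, against 9.04, 9.26, 9.23, 9.27 and 9.03 in wild type control livers. Only progeroid control animal 325 at 9.17 fell into the range of the progeroid restricted animals, and the wild type groups did not overlap. The changes were -0.34 ± 0.09 in progeroid livers (SE; adjusted p = 0.01458) and -0.48 ± 0.09 in wild type livers (adjusted p = 0.0005128), and both held without any 1 animal and under every alternative.

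Ndufaf4, another complex I assembly factor, moved the opposite way. It had 9.93, 10.49, 10.15, 10.44 and 10.41 in wild type restricted livers against 9.78, 9.56, 9.51, 9.77 and 9.61 in wild type control livers, and rose there by 0.64 ± 0.15 (SE; adjusted p = 0.004349) with no overlap. In progeroid livers it had 9.75, 9.96, 9.98, 9.74 and 10.03 on restricted diet against 10.06, 9.49, 9.35, 9.35 and 10.24 on control diet, a difference of 0.19 with an adjusted p of 0.4717. The second Ndufaf4 probe set was not called in wild type livers. Of the 9 assembly factors among the members, restriction raised 0 and lowered 2 in progeroid livers and raised 1 and lowered 2 in wild type livers, with medians of -0.013 and -0.110; for the 80 subunits the medians were 0.071 and 0.094.

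Probe sets of the same gene did not always give the same call. Of the 43 members with several probe sets, 3 were called in another probe set but not in the brightest for the diet effect in progeroid livers (Atp5h, Atp5o and Ndufa7), all higher. For the diet effect in wild type livers these were 8 (Sdha, Cox5b, Atp5c1, Atp5d, Atp5o, Ndufa7, Ndufab1 and Ndufs4), again all higher. Between genotypes they were 2 on control diet (Ndufab1 and Uqcc1) and 5 on restricted diet (Atp5c1, Atp5h, Ndufb5, Ndufs8 and Uqcrq), all lower in progeroid livers. Conversely, 1 of the members called in progeroid livers and 10 of those called in wild type livers had another probe set that was not called, and no member had probe sets called in opposite directions.

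The log2 diet changes of the genotypes rest on separate arrays and can be set side by side. The calls do not, because the fit took the spread of each gene from all groups together. Calls shared by the genotypes are therefore not agreement between independent tests. Called in both were 5 members, Sdhd, Cox7a1, Ndufaf1, Atp5g1 and Uqcrfs1, each in the same direction. These are 62.5% of the 8 called in progeroid livers and 18.5% of the 27 called in wild type livers; over all genes the shares were 59.7% and 31.9%. The sign of the change was the same for 74 of 90 members (82.2%), against 67.3% of all genes. Across the 90 members the changes had a Pearson correlation of 0.87, or 0.77 without Cox7a1, against 0.70 across all genes; genes of an array are not independent, so this is a description.

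**Figure D3:**
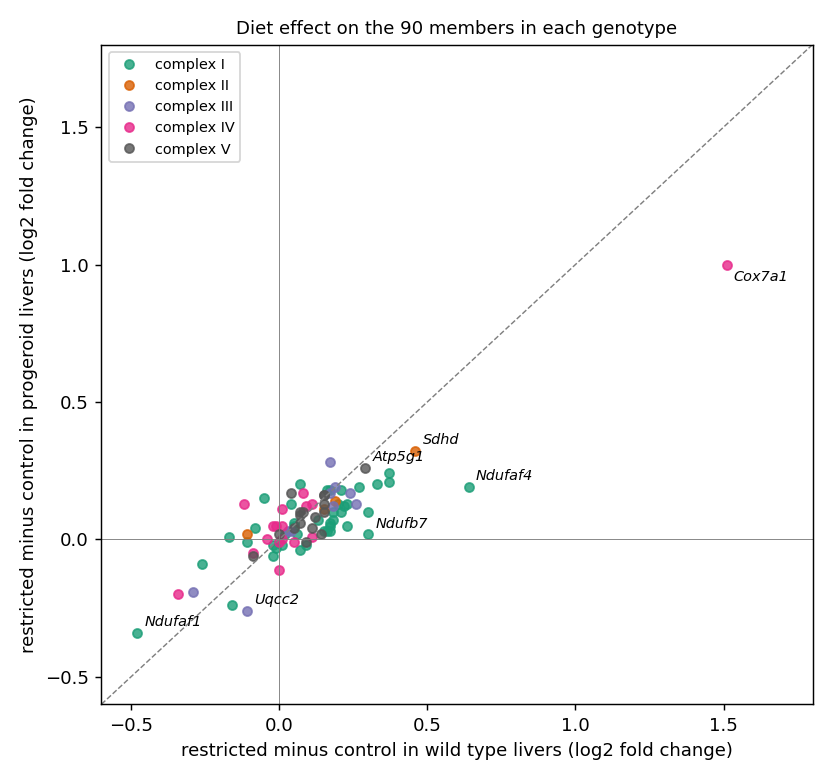
Log2 change with restriction in wild type livers (horizontal axis) and in progeroid livers (vertical axis) for the 90 members, coloured by complex, with a dashed line of equal change. The point for Cox7a1 lies far to the upper right at 1.51 and 1.0, and Ndufaf1 lies at the lower left at -0.48 and -0.34.

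The size of the change was smaller in progeroid than in wild type livers for 57 of the 90 members (63.3%), against 57.3% of all genes. The difference itself, the diet effect in progeroid minus that in wild type livers, passed the limma test for 0 of 90 members, against 1.40% of all genes; 2 members, Ndufb7 at -0.21 ± 0.09 and Ndufs1 at -0.28 ± 0.11 (SE), had an unadjusted p under 0.05, with adjusted p of 0.2634 and 0.2459. The median difference was -0.016 for the members and 0.018 for all genes, and for complex I it was -0.075. The larger number of calls in wild type livers is therefore not shown to be a difference between the genotypes for any single member.

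The 5 members called in both diet comparisons were looked up in RefSeq promoters (assembly GRCm38.p6). Of the 90 members, 72 matched an entry, which runs over 250 bases before and 50 after the start of the gene. The windows were searched on both strands for 5 motifs of factors known to act on respiratory genes or on fasted liver: NRF1 (GCGC, any base, then TGCGC), ETS factors such as Gabpa (CCGGAAG), oestrogen-related receptors (TCAAGGTCA), CREB (TGACGTCA) and E-box proteins (CACGTG). The 250 bases before the start are printed here 5′ to 3′ for the gene's own strand, because these are the genes whose signals moved with diet in both genotypes, and capitals mark the motif matches.
Sdhd: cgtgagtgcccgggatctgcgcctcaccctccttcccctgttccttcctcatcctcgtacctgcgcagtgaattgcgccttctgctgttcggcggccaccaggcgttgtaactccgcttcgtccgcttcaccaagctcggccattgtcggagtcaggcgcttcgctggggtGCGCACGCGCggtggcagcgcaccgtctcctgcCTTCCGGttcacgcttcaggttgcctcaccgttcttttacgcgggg
Cox7a1: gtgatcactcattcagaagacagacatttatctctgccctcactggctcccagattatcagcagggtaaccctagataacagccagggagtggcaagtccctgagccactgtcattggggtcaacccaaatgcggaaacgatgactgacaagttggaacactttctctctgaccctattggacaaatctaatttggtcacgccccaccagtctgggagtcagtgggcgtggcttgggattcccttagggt
Ndufaf1: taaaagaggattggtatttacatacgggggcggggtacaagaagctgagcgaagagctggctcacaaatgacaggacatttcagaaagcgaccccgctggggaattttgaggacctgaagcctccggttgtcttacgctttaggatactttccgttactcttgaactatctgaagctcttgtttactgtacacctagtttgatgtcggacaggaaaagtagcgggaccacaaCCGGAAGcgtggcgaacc
Atp5g1: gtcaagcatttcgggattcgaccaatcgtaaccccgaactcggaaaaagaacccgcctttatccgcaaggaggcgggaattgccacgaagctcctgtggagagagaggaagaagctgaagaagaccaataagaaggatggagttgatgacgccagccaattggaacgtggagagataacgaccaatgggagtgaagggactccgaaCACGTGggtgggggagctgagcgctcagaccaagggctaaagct
Uqcrfs1: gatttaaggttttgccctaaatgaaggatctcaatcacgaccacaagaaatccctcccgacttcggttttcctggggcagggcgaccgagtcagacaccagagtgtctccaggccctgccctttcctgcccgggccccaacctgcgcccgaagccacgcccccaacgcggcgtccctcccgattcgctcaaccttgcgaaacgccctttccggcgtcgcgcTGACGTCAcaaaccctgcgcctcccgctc

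Sdhd lies on the minus strand, with this stretch at chr9:50603850-50604099; it holds an NRF1 match at positions -79 to -70 and an ETS match at -46 to -40, both read on the opposite strand. Just after the start, at chr9:50603800-50603821 on the minus strand, Sdhd also holds an oestrogen-related receptor match, shown in capitals in ttgtagagTGACCTTGAgccct. The Cox7a1 stretch, chr7:30183921-30184170 on the plus strand, holds none of the 5 motifs. The Ndufaf1 stretch, chr2:119662835-119663084 on the minus strand, holds an ETS match at -18 to -12. The Atp5g1 stretch, chr11:96075632-96075881 on the minus strand, holds an E-box at -44 to -39. The Uqcrfs1 stretch, chr13:30545317-30545566 on the minus strand, holds a CREB match at -29 to -22. No printed matches share a base, and a match is a string of letters, not a measured binding site.

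Across the 72 members the NRF1 letters were found in 19 windows (26.4%), against 8.37% of 13605 windows of all tested genes. The ETS letters were in 17 (23.6%) against 15%, the oestrogen-related receptor letters in 2, Sdhd and Atp5g3 (2.78%), against 0.382%, the CREB letters in 4 (5.56%) against 2.93%, and the E-box in 6 (8.33%) against 10.2%. Of the 18 members with a window that rose in wild type restricted livers, 7 held the NRF1 letters (38.9%), namely Atp5h, Ndufa5, Ndufa6, Ndufa8, Ndufa11, Ndufaf4 and Sdhd, against 12 of the other 54 (22.2%). These shares are descriptions with no test.

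Between genotypes the members differed little on control diet. Progeroid control livers had no member higher and 2 lower than wild type control livers, Ndufaf2 and Ndufb8. This is 2.22% of the 90 members, while 11.0% of all genes were called, 6.70% higher and 4.32% lower, and 12.3% of genes with a mean of at least 10, 6.31% higher and 6.04% lower. A change below 0 was seen for 62 of 90 members, with a median of -0.049 against -0.014 for all genes. The genotypes did not overlap for 2 members, Ndufs7 and Atp5o, both lower in progeroid livers, where 5.40% of all genes were higher and 3.95% lower without overlap. This comparison and the diet comparison in each genotype share control arrays.

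Ndufaf2, a factor that joins late in the assembly of the NADH-oxidising module, had signals of 8.13, 7.84, 7.50, 7.88 and 8.03 in progeroid control livers against 8.40, 8.36, 8.22, 8.33 and 8.03 in wild type control livers. Of the wild type controls only animal 405 at 8.03 reached the progeroid range, and the change was -0.39 ± 0.10 (SE; adjusted p = 0.0137). The call held without any 1 animal but not with the control arrays fitted alone (adjusted p = 0.05256). On restricted diet Ndufaf2 had 7.72, 8.02, 7.98, 7.71 and 7.88 in progeroid livers against 8.14, 8.25, 8.03, 8.13 and 8.22 in wild type livers, with no overlap and an adjusted p of 0.05149.

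Ndufb8, an accessory subunit of the membrane arm, was lower in progeroid livers on both diets. It had 11.87, 11.96, 11.81, 11.80 and 11.65 in progeroid control livers against 12.08, 11.94, 11.95, 12.03 and 12.06 in wild type control livers, which overlapped. It had 12.05, 11.92, 11.98, 11.84 and 11.91 in progeroid restricted livers against 12.12, 12.28, 12.24, 12.22 and 12.29 in wild type restricted livers, which did not. The changes were -0.19 ± 0.06 on control diet (SE; adjusted p = 0.04549) and -0.29 ± 0.06 on restricted diet (adjusted p = 0.002348). The control diet call was lost without any 1 of 14 animals, and both were lost where suffixed probe sets were left out, since the second probe set gave -0.12 and -0.31 with adjusted p of 0.6378 and 0.1165.

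On restricted diet 1 member was higher and 6 were lower in progeroid than in wild type livers. The 7 are 7.78% of the 90 members, while 17.2% of all genes were called, 11.8% higher and 5.44% lower, and 23.6% of genes with a mean of at least 10, 14.0% higher and 9.63% lower. A change below 0 was seen for 67 members, among them all 10 of complex III, and the median was -0.071 against -0.003 for all genes. In complex I, which held 6 of the 7 calls, the median was -0.098. The groups did not overlap for 8 members, all lower in progeroid livers, where 7.95% of all genes were higher and 3.94% lower without overlap. This comparison and the diet comparison in each genotype share restricted arrays. Of the members called lower here, Ndufa11, Ndufb7, Ndufb8, Ndufb9 and Atp5g1 also rose in wild type restricted livers, so these calls are not independent.

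Of the 6 that were lower, 5 are complex I subunits and the sixth is Atp5g1. Besides Ndufb8 these were Ndufb7 at -0.24 ± 0.06 (SE; adjusted p = 0.007877), with progeroid restricted animals at 11.21 to 11.35 and wild type restricted animals at 11.44 to 11.61, and Ndufb9, Ndufs4 and Ndufa11 at -0.17, -0.32 and -0.20. Ndufs4, a subunit of the matrix arm whose loss causes Leigh syndrome in humans, had 10.41, 10.23, 10.47, 9.96 and 10.37 in progeroid restricted livers against 10.43, 10.89, 10.59, 10.51 and 10.64 in wild type restricted livers, which overlapped. The Ndufs4 call was lost without progeroid animals 365 or 368 or wild type animals 422 or 425 (adjusted p up to 0.09498), that of Ndufb9 without any 1 of 5 animals and that of Ndufa11 without any 1 of 6. Atp5g1 was lower, with a change of -0.23 ± 0.07 (SE; adjusted p = 0.02263), a call lost without any 1 of 5 animals and with its second probe set.

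Ndufaf1 was the member higher in progeroid livers. With the signals given above it lay at 8.82 to 9.21 in progeroid restricted against 8.56 to 8.86 in wild type restricted livers, a change of 0.40 ± 0.09 (SE; adjusted p = 0.003344) that held under every alternative. On control diet it lay at 9.17 to 9.53 in progeroid against 9.03 to 9.27 in wild type livers, with a difference of 0.26 and an adjusted p of 0.06491. Only progeroid restricted animal 362 fell within the wild type restricted range.

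Both genotype comparisons changed when the median over all genes was subtracted from each array. The arrays were already on a common scale, with medians over the whole array between 4.17 and 4.21 (log2). The median over all genes, each read from its brightest probe set, was higher in progeroid than in wild type livers. The shift was 0.104 on control diet and 0.172 on restricted diet (log2). Subtracting this median therefore shifts arrays that were already on a common scale. With that median subtracted from each array, 25 members were lower and none was higher in progeroid control than in wild type control livers, where 4.47% of all genes were higher and 16.4% lower. On restricted diet 62 members were then lower and 1, Ndufaf1, was higher, where 6.77% of all genes were higher and 38.1% lower. This scaling moves all genes down alike: the median change became -0.152 for the members and -0.117 for all genes on control diet, and -0.243 for the members and -0.175 for all genes on restricted diet. In the diet comparisons the median of all genes differed by 0.033 in progeroid and -0.036 in wild type livers. With it subtracted, 2 members were higher and 3 lower in progeroid livers, where 5.5% of all genes were higher and 6.63% lower. In wild type livers 25 members were then higher and 4 lower, where 11.3% of all genes were higher and 9.87% lower.

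Markers of cell types also differed between genotypes. The mean signal of 8 hepatocyte markers ranged over 12.75 to 12.93 in progeroid restricted and 12.75 to 12.89 in progeroid control livers. It ranged over 12.95 to 13.05 in wild type restricted and 12.86 to 13.03 in wild type control livers. Of the 8, Tat and Hnf4a were called lower in progeroid livers on each diet and 0 higher. The signs of the 8 were mixed: on control diet 4 were above 0 and 4 below, with a median of 0.009. On restricted diet 3 were above 0 and 5 below, with a median of -0.078. The mean of 8 Kupffer cell and macrophage markers ranged over 7.90 to 8.66 in progeroid restricted and 7.70 to 8.39 in progeroid control livers, and over 7.05 to 7.66 in wild type restricted and 7.48 to 7.93 in wild type control livers. Of these markers 6 of 8 were higher in progeroid livers on restricted diet and 2 of 8 on control diet. Of 6 neutrophil and monocyte markers and 9 stellate cell and fibroblast markers, 3 of each were higher in progeroid livers on each diet and 0 lower. Of all genes, 6.70% were higher and 4.32% lower on control diet, and 11.8% and 5.44% on restricted diet. The signal of the Gapdh probe set at the 3′ end minus that at the 5′ end, a sign of RNA integrity, ranged over 0.58 to 1.12 in progeroid restricted and 0.64 to 1.38 in progeroid control livers, and over 0.58 to 0.87 in wild type restricted and 0.55 to 0.70 in wild type control livers. The part of cell makeup in the genotype differences of the members was not tested. With the Gapdh difference as a covariate, 2 members were higher and 7 lower on restricted diet, and 0 higher and 1 lower on control diet. The share of all genes called in that fit is not given here, so these counts do not measure the part of RNA integrity.

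The levels were also summarised by animal. For each animal the median deviation of the 90 members from their own means over 20 arrays was taken. It was 0.064, 0.017, 0.021, -0.077 and 0.015 in progeroid restricted livers, against 0.014, -0.044, -0.117, -0.090 and -0.059 in progeroid control livers. It was 0.013, 0.118, 0.086, 0.080 and 0.091 in wild type restricted livers, against 0.015, -0.039, -0.048, -0.013 and -0.015 in wild type control livers. Progeroid restricted animal 368 was the low one of its group in complexes I, III, IV and V, and wild type restricted animal 421 was the low one of its group in all 5 complexes.

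**Figure D4:**
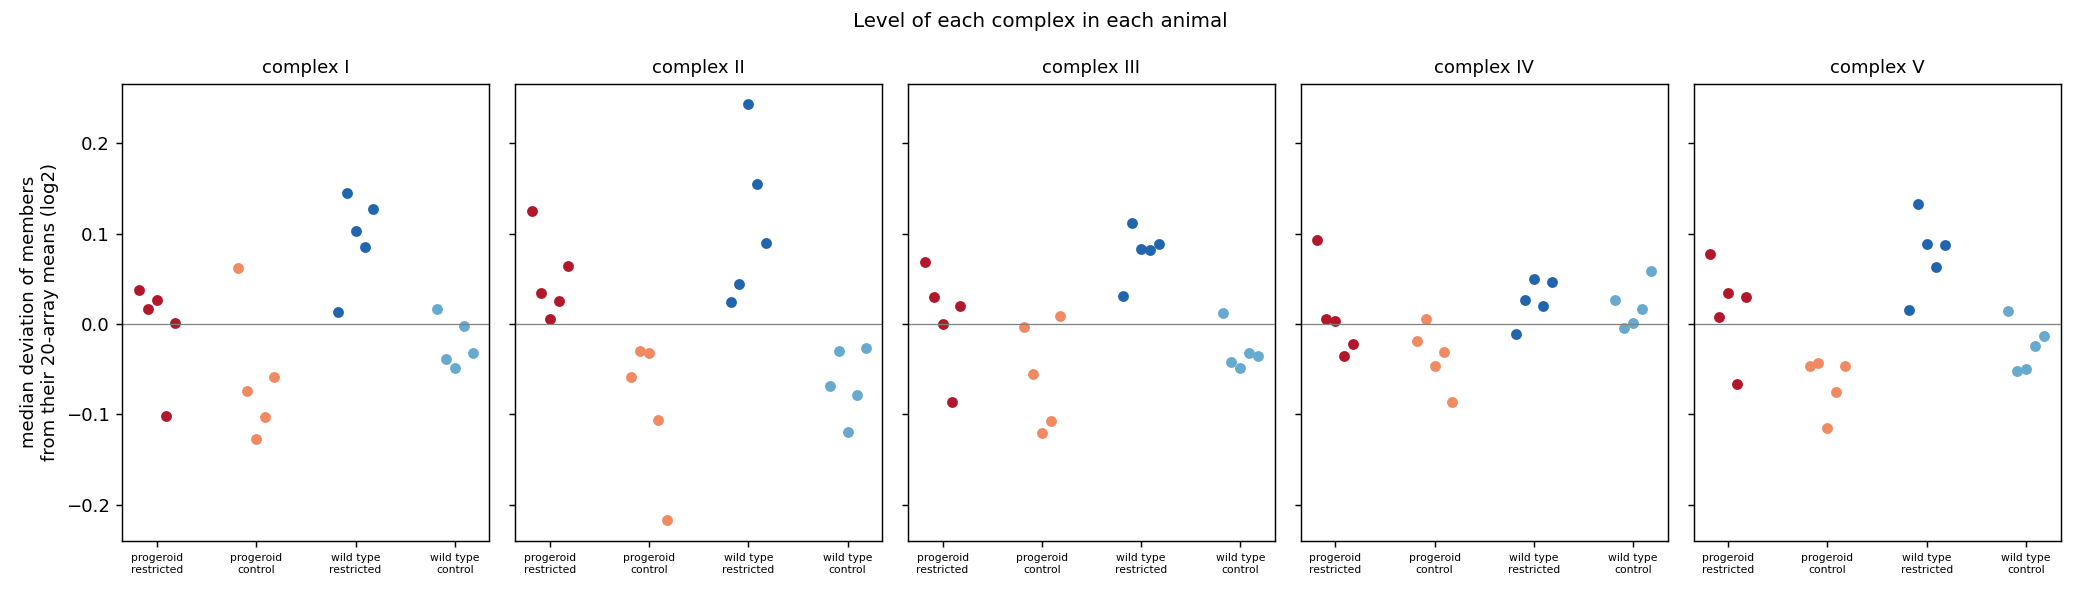
Median deviation of the members of each complex from their means over 20 arrays (log2), 1 point per animal. Wild type restricted animals have the highest group mean in each complex, and in complex IV all 4 groups lie between -0.086 and 0.093.

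After the group means were removed, the 73 members with a mean of at least 10 still correlated across animals. The median Pearson correlation over their 2628 pairs was 0.26, with 68.2% of pairs above 0, against 0.00 and 49.9% for all 1474 genes of that brightness. Within complexes the median was 0.26 for I, 0.31 for III, 0.29 for V and 0.10 for IV. All pairs share the same 20 arrays, so these values describe the arrays and carry no test.

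Other lists took in genes that feed, regulate and assemble the chain. The background for their counts is the share of all genes given above: 6.94% higher and 5.07% lower with restriction in progeroid livers, and 9.92% higher and 12.6% lower in wild type livers. A list of 16 measured genes joined the tricarboxylic acid cycle with Pdha1, Pdhb, Dlat and Pcx, genes of enzymes that act on pyruvate. Of these 16, restriction raised 7 (43.8%) and lowered 0 in progeroid livers, with a median of 0.20. In wild type livers it raised 9 (56.2%) and lowered 0, with a median of 0.22. Among genes with a mean of at least 10 the shares higher were 11.9% and 20.8%, though the list also holds dimmer genes such as Ogdh. Mdh2, the matrix malate dehydrogenase, averaged 11.71 in progeroid restricted and 11.27 in progeroid control livers, and 11.79 in wild type restricted and 11.19 in wild type control livers. It rose by 0.44 ± 0.07 and 0.60 ± 0.07 (SE), with adjusted p of 0.0005542 and 7.128e-06. Idh2, the matrix NADP-dependent isocitrate dehydrogenase, rose by 0.72 and 0.80, but both calls were lost where suffixed probe sets were left out. Between genotypes on restricted diet 4 of these genes (25%) were lower and 0 higher in progeroid livers, where 5.44% of all genes were lower, among them the pyruvate dehydrogenase genes Pdha1 at -0.31 and Pdhb at -0.44, with adjusted p of 0.006028 and 0.006416.

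Of 18 measured regulators of mitochondrial gene expression, 5 rose (27.8%) and 0 fell with restriction in progeroid livers, and 3 rose (16.7%) and 2 fell (11.1%) in wild type livers. Esrra, the oestrogen-related receptor that activates respiratory genes, averaged 7.93 ± 0.09 in progeroid restricted and 7.27 ± 0.11 in progeroid control livers, and 8.13 ± 0.17 in wild type restricted and 7.59 ± 0.11 in wild type control livers (SD, n = 5 each). The diets did not overlap in either genotype, and the rises of 0.65 and 0.55 had adjusted p of 3.063e-05 and 4.958e-05. Tfam, which packs and transcribes mitochondrial DNA, rose by 0.34 in progeroid livers (adjusted p = 0.003491) and differed by 0.15 in wild type livers (adjusted p = 0.1339), and Twnk, the mitochondrial DNA helicase, fell by 0.42 on the log2 scale in wild type livers (adjusted p = 0.0004768).

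On control diet 1 of these 18 regulators was higher and 3 were lower in progeroid than in wild type livers, and on restricted diet 3 were higher and 3 lower, where 6.70% and 4.32% of all genes were higher and lower on control diet and 11.8% and 5.44% on restricted diet. Tfb1m, a methyltransferase of mitochondrial ribosomal RNA, was higher in progeroid livers by 0.45 on control and 0.61 on restricted diet, with adjusted p of 0.01161 and 0.0006518. Esrrg, a relative of Esrra, was lower on control diet, with a change of -1.16 (adjusted p = 0.003354). Its means there were dim, 3.75 in progeroid and 4.90 in wild type livers, which limits how well this change is measured. The diet effects on Esrrg differed between the genotypes by 0.27 (limma adjusted p = 0.7793). Yy1, a zinc finger factor known to work with the coactivator of respiratory genes, had a diet effect that differed between the genotypes by 0.42 (adjusted p = 0.03253), a call lost without any 1 of 12 animals.

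Assembly factors outside the symbol rule moved in both directions. Of 17 measured complex IV factors and chaperones, restriction raised 3 (17.6%) and lowered 2 (11.8%) in progeroid livers and raised 3 (17.6%) and lowered 6 (35.3%) in wild type livers. Cox19, a copper-related factor of complex IV assembly, averaged 9.45 in progeroid restricted and 9.78 in progeroid control livers, and 8.99 in wild type restricted and 9.83 in wild type control livers. The changes were -0.33 ± 0.08 and -0.83 ± 0.08 (SE; adjusted p of 0.008303 and 2.924e-07). Their difference of 0.50 ± 0.11 passed the test (adjusted p = 0.02725), and was lost without any 1 of 6 animals. Sdhaf2, which attaches the flavin to Sdha, fell by 0.35 on the log2 scale in progeroid and by 0.54 in wild type restricted livers, with adjusted p of 0.007625 and 6.731e-05.

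Of 71 mitochondrial ribosomal protein genes, restriction raised 5 (7.04%) and lowered 2 (2.82%) in progeroid livers and raised 7 (9.86%) and lowered 14 (19.7%) in wild type livers, with shares higher near those of all genes. Of 19 genes of mitochondrial fusion, fission, cristae and import, it raised 5 (26.3%) in progeroid and 7 (36.8%) in wild type livers and lowered none. Chchd3, a protein that shapes cristae, was lower in progeroid livers, with a change of -0.56 on each diet and adjusted p of 0.0001738 on control and 0.000113 on restricted diet. Of 10 genes for electron transfer, ubiquinone synthesis and membrane carriers, restriction raised 4 (40%) and lowered 1 (10%) in progeroid livers. In wild type livers it raised 2 (20%) and lowered 1 (10%). Slc25a4, an ADP/ATP carrier, was higher in progeroid livers by 0.48 on control and 0.64 on restricted diet, and Atpif1, an inhibitor of the ATP synthase, by 0.74 and 0.48. The calls of Slc25a4 and Atpif1 rest on suffixed probe sets; without these the Slc25a4 difference on control diet was -0.03 and the Atpif1 difference on restricted diet was -0.06.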

How the data were processed

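The deposited values are log2 signals; the submitters' processing notes name RMA as the authors' method, with a version not given in the sources used here. The method sets all arrays to a common distribution, so a global shift is removed. The table held 45141 probe sets per array, 28898 of them with 1 symbol; 28689 were found in RefSeq (GRCm38.p6) by Entrez ID. Each gene was read from its brightest probe set.

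Using limma 3.58.1 in R 4.3.3, 17097 genes on all 20 arrays were fitted with a mean for each of the 4 groups (16 residual degrees of freedom before moderation); p-values were two-sided and Benjamini-Hochberg adjusted over all genes, and the fit was tested on simulated data. The labels name separate animals, and no animal number recurs between groups. Precision is limited by how many arrays there are. Tables were made with Python 3.11.15 and pandas 2.3.3.

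The members, gene lists and tests were chosen with earlier results of these data known. Named genes are all members called in any comparison, core subunits, tissue isoforms, the extremes of each complex, members whose probe sets disagree, the 2 genes of each other list with the smallest adjusted p per comparison, and Ercc1. Alternatives were array median subtraction, the mean of probe sets, no suffixed probe sets, a mean of at least 5, trend and robust estimation, arrays of the comparison only, the Gapdh covariate and leaving out each animal. The array median subtracted was that over all genes, each read from its brightest probe set. The background among genes with a mean of at least 10 and the look at each other probe set were chosen after seeing the data.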

Additional observations from a re-analysis of the deposited data

Results flagged for a closer look

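Within the groups of 5 animals, 4 signals stood apart from the other animals by a gap of more than 0.71 of the group's range. Ndufa3, a complex I accessory subunit, was at 11.46 in progeroid control animal 327, where the nearest animal had 11.69. Ndufaf1, a complex I assembly factor, was at 9.17 in progeroid control animal 325, where the nearest had 9.44. Uqcr10, a complex III subunit, was at 11.81 in wild type restricted animal 421, where the nearest had 12.01. Atp5h, a stalk subunit of the ATP synthase, was at 12.69 in progeroid restricted animal 368, where the nearest had 12.77. All 4 were the lowest of their group. In all, 128 groups were examined, for the 32 members called in any comparison, and chance alone marks about 1 in 20 such groups.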

How the results depend on the processing

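No paired analysis was possible because the groups share no animal numbers. Leaving out each animal in turn gave 3 to 9 called members for the diet effect in progeroid livers (median change 0.042 to 0.095), 18 to 29 in wild type livers (0.082 to 0.111), 1 to 3 for the genotype effect on control diet (-0.065 to -0.029), 3 to 9 on restricted diet (-0.085 to -0.044) and 0 to 0 for the difference of the diet effects (-0.039 to 0.002). For the diet effect in progeroid livers, subtracting the array median gave 5 called members, leaving out suffixed probe sets gave 5 and fitting the progeroid arrays alone gave 3, against 8. In wild type livers, leaving out suffixed probe sets gave 17 against 27, of 71 members then measured. For the genotype effect on control diet, subtracting the array median gave 25 against 2, with a median change of -0.152 against -0.117 for all genes, genes with a mean of at least 5 gave 4, the control arrays alone gave 0 and the Gapdh covariate gave 1. On restricted diet, subtracting the array median gave 63 against 7, with a median of -0.243 against -0.175 for all genes, and the mean of probe sets gave 11. The median difference of the diet effects was -0.085 with the array median subtracted. Signs turned for 9 named results. Without suffixed probe sets, Uqcr10 had -0.06 for the diet effect in wild type livers; between genotypes, Atpif1 had -0.06 on restricted diet, Ercc1 0.02 on each diet, Idh2 -0.08 on control diet, Opa1 0.25 on control and 0.02 on restricted diet, and Slc25a4 -0.03 on control diet. With the mean of probe sets, Tomm70a had -0.01 for the diet effect in progeroid livers. The alternatives here read other probes or fewer arrays, and the cause was not tested. Over all 444 named results, 11306 repeats kept direction and side of the threshold, 407 lost a call and 181 gained one. Members with means under 6, such as Cox7a1 and Cox8c, lie near the dim end of the array, which limits how well their folds are measured.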
